A study of Mus musculus with 8 samples.

Results

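The core circadian clock genes of the mouse liver were examined as a set of 10, *Bmal1*, *Clock*, *Npas2*, *Cry1*, *Nr1d1*, *Nr1d2*, *Per1*, *Per2*, *Per3* and *Dbp*, chosen by gene symbol. All 10 were found among the 27179 genes of the deposited table, each in 1 row. RNA had been sequenced from the livers of 8 adult male C57BL/6NHsd mice after a fast of 6 h, 4 of them wild-type and 4 homozygous for the V227A variant of PPARɑ, a nuclear receptor that turns on fatty acid oxidation genes in fasting. The variant was made by adenine base editing of the germline, so every tissue carried it, and the colony came from 1 heterozygous founder that was crossed back to C57BL/6NHsd. The only level the table gives for a gene is its average over all 8 libraries. The levels below therefore describe wild-type and V227A livers together, and the authors' own columns for the difference between genotypes are not reported here. No level per mouse, spread between mice or test could be obtained from an average, so the intervals given cover counting error only.

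The clock of a liver cell is a transcriptional feedback loop. BMAL1 pairs with CLOCK, or with its relative NPAS2, and the pair binds E-boxes to switch on the *Per*, *Cry*, *Nr1d* and *Dbp* genes. PER and CRY proteins then block the pair, while the heme-binding receptors NR1D1 and NR1D2 (REV-ERBɑ and REV-ERBβ) repress *Bmal1*, *Npas2* and *Clock* through ROR elements, where RORɑ activates. DBP carries the rhythm on to output genes through D-boxes. In the livers of mice kept under light and dark, *Bmal1* and *Npas2* are known to peak around the end of the night, whereas the *Nr1d*, *Dbp* and *Per* transcripts peak at successive times from the day into the early night. *Cry1* peaks in the later night and *Clock* has a shallow rhythm. The mice here were fasted from the morning into the early afternoon under a 12-h light-dark cycle, and the hour of lights-on is not given in the sources used here.

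Promoter sequences of the members were examined for the elements named above, and for the cAMP response element. Whether a match acts in these livers, or sets the phase of its gene, was not tested. RefSeq windows of 300 bases, from 250 before to 50 after a transcription start (GRCm38.p6), were matched for 9 of the 10 genes, all but *Per2*. They were searched on both strands for the E-box CACGTG, the E'-box CACGTT, the ROR element ANTNGGTCA, the D-boxes TTATGTAA and TTATGCAA, and the cAMP response element TGACGTCA. None of these words contains another on either strand, and the E-box and the cAMP response element read the same on both. Of 32817 such windows of all genes, 7.15% held the E-box, 4.69% the E'-box, 2.24% the ROR element, 0.935% and 0.744% the D-boxes in the order given, and 1.79% the cAMP response element. The stretches below are 5′ to 3′ on the strand of the gene, with the matched element in capitals, and are shown because they cover each kind of element found.

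*Bmal1* ROR element, chr7:113207529-113207558, plus strand: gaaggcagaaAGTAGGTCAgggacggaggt
*Cry1* E-box, chr10:85185097-85185126, minus strand: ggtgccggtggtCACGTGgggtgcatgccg
*Nr1d1* E'-box, chr11:98775388-98775417, minus strand: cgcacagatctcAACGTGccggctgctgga
*Per1* E-box, chr11:69098771-69098800, plus strand: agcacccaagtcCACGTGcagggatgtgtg
*Per1* D-box, chr11:69098914-69098943, plus strand: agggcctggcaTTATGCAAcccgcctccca
*Per3* D-box, chr4:151044852-151044881, minus strand: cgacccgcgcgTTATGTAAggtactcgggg
*Per3* D-box, chr4:151044805-151044834, minus strand: cccgcccgcggTTATGTAAcccccgccgtg

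Distances are counted from the RefSeq start of a window, which need not be that of the annotated gene. *Bmal1* has 2 windows. Its ROR element begins 28 bases after a start that lies inside the annotated gene, which begins at 113207465. The E-box of *Cry1* begins 60 bases before the start, and the E'-box of *Nr1d1* begins 28 bases before it. *Per1* has 2 windows, and both of its matches lie inside the annotated gene, which spans 69095217 to 69109960. They are counted from a start within that span, with the E-box 166 and the D-box 24 bases before it. The D-boxes of *Per3* begin 205 and 158 bases before the start. *Cry1* also holds an E'-box, 79 bases before the start. The windows of *Clock*, *Npas2*, *Nr1d2* and *Dbp* held none of these letters, which says nothing about elements elsewhere in those genes.

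Levels are given as CPM (read counts scaled to library size), and, where genes are compared with each other, as CPM per kilobase of annotated exon, since a long transcript yields more reads. At this depth, a mean effective library size estimated at 27473997 reads, all 10 genes had reads. Of the 10 members, the 6 genes of the *Nr1d*, *Per* and *Dbp* phases were the more abundant, with 2.63 to 83.7 CPM per kb. The 4 members that peak with *Bmal1* were the scarcer, with 0.0603 to 1.87 CPM per kb. The network genes described below were not sorted by phase, so this split covers the members only. The lowest of the 6 (*Per2*) lay above the highest of the 4 (*Cry1*). The median was 11.5 CPM per kb in the first group and 0.950 in the second, a difference of 3.60 on the log2 scale, or 12.1-fold. The other settings tried gave larger differences, up to 21.6-fold with means in place of medians. The only genes left out in them were *Clock* or *Cry1*, the highest of the 4 per kb, which could only widen the difference. Leaving out *Npas2* or any of the 6 was not tried, so 12.1-fold is not a lower bound. Since genes are not replicates and the table holds 1 time of day, no test was made of this difference. Its relation to the hour of collection was not tested.

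**Figure D1:**
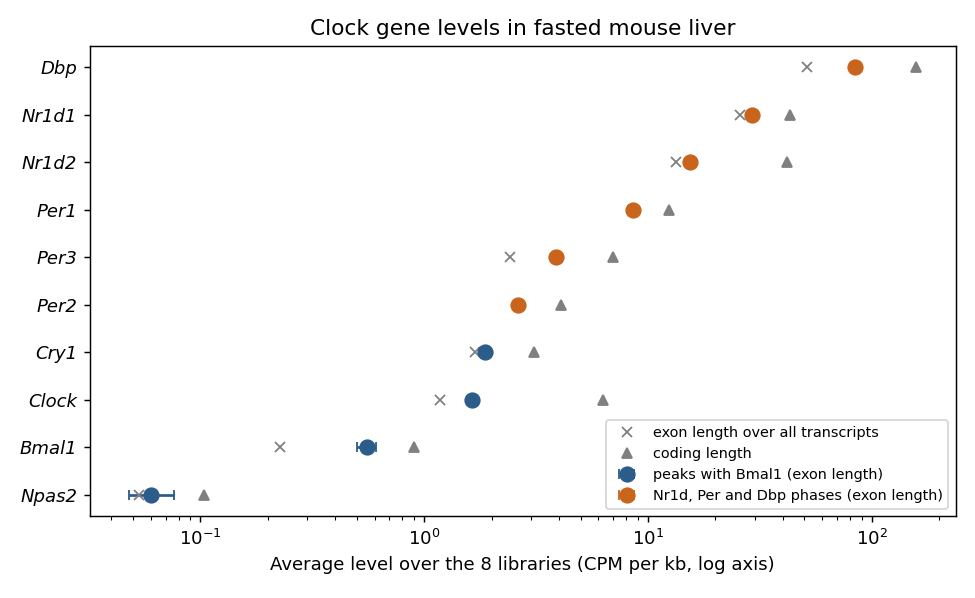
Average level of each clock gene over the 8 libraries, in CPM per kb on a log axis. Coloured points use annotated exon length, blue for the 4 genes that peak with *Bmal1* and orange for the 6 of the *Nr1d*, *Per* and *Dbp* phases, with bars for the 95% counting interval (mostly smaller than the points), and grey marks show 2 other lengths. *Dbp* sits highest at 83.7 and *Npas2* lowest at 0.0603.

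The order from highest to lowest per kb was *Dbp*, *Nr1d1*, *Nr1d2*, *Per1*, *Per3*, *Per2*, *Cry1*, *Clock*, *Bmal1* and *Npas2*. No 2 neighbours in this order had overlapping counting intervals. The closest were *Cry1* and *Clock*, with a ratio of 1.14, then *Per2* and *Cry1* (1.41) and *Per3* and *Per2* (1.47). Other lengths turned the order of 2 of these pairs, since *Per2* (2.62) was above *Per3* (2.42) with exon length over all annotated transcripts and *Clock* (6.31) was above *Cry1* (3.11) with coding length. Whether such neighbours would differ beyond the spread between mice cannot be seen from averages. With exon length the widest step was at the bottom, where *Bmal1* was 9.17 times *Npas2*, but over all annotated transcripts that ratio was 4.26 and the step from *Clock* to *Bmal1* (5.19) was wider. The level of *Dbp* was 1388 times that of *Npas2*. Ratios to *Npas2* include a small prior count in the average, without which *Npas2* was at 0.183 CPM in place of 0.256, so that these ratios would be larger. With exon length over all annotated transcripts, *Dbp* was at 51.4 and *Npas2* at 0.0533 CPM per kb, a smaller ratio.

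Of the activators, *Bmal1* and *Npas2* were few in reads and *Clock* was not. *Bmal1* (chromosome 7, 113207465 to 113314126), the partner without which the loop does not run, had an average of 1.71 CPM, about 360 reads over the 8 libraries, and 0.553 CPM per kb (95% counting interval 0.500 to 0.611). It ranked above 42.6% of the genes with reads. *Clock* (chromosome 5, 76209868 to 76304792), a histone acetyltransferase as well as a DNA-binding factor, had 16.2 CPM. Because its exons cover 9925 bases, the most of the set, this came to 1.63 CPM per kb (1.58 to 1.69). Per kb it was 2.95 times its partner *Bmal1*, and 5.19 times with exon length over all annotated transcripts or 7.01 times with coding length.

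*Npas2* (chromosome 1, 39193731 to 39363236), which can stand in for *Clock*, was close to the limit of detection. Its average was 0.256 CPM, and since the average includes a small prior count, the estimate without it was 0.183 CPM, or 5.02 reads per library and about 40 reads over all 8. Its level per kb was 0.0603 (0.0480 to 0.0759), and *Clock* was 27.0 times higher on that scale (60.5 times with coding length). These values per kb include the prior count, without which *Npas2* would be lower and the ratios larger. *Npas2* ranked above 26.1% of the genes with reads and was the only clock gene of the 10 below 1 CPM.

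*Cry1* (chromosome 10, 85131700 to 85185064) encodes the repressor that is counted with the *Bmal1* group here for its late phase. It had 5.65 CPM and 1.87 CPM per kb (1.77 to 1.97). Its paralog *Cry2*, whose rhythm in liver is shallow, was at 11.9 CPM per kb, 6.39 times *Cry1*. *Cry2* was the higher of the pair with each of the lengths tried, by 4.85 to 9.38 times.

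The REV-ERB receptors stood far above *Bmal1*, which they repress along with *Npas2* and *Clock*. *Nr1d1* (chromosome 11, 98767932 to 98775333) had 79.3 CPM and 29.1 CPM per kb (28.7 to 29.6). *Nr1d2* (chromosome 14, 18204054 to 18239127) had 72.1 CPM and 15.5 CPM per kb (15.2 to 15.7), a 1.88-fold difference per kb that came to 1.03-fold with coding length. Per kb, *Nr1d1* was 52.6 times *Bmal1* and *Nr1d2* was 27.9 times *Bmal1*. With exon length over all annotated transcripts, which is much longer for *Bmal1*, these ratios were 113 and 58.6. *Nr1d1* ranked above 91.9% and *Nr1d2* above 91.1% of the genes with reads.

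Among the period genes, which encode the partners of CRY in the repressor complex, *Per1* (chromosome 11, 69095217 to 69109960) was highest. It had 48.2 CPM and 8.57 CPM per kb (8.40 to 8.73). *Per3* (chromosome 4, 151003652 to 151044665) had 23.2 CPM and 3.87 CPM per kb (3.77 to 3.98). *Per2* (chromosome 1, 91415982 to 91459324), the last of the family to peak in liver, had 15.4 CPM and 2.63 CPM per kb (2.55 to 2.72). *Per1* was thus 3.25 times *Per2* and 2.21 times *Per3* per kb (3.54 times *Per3* with exon length over all annotated transcripts).

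*Dbp* (chromosome 7, 45705088 to 45710203), the PAR bZIP output factor, was the most abundant of the 10 on both scales. It averaged 154 CPM, an estimated 4222 reads per library, and ranked above 95.8% of the genes with reads. Per kb it stood at 83.7 (82.8 to 84.6), 2.87 times *Nr1d1*, the next in order.

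**Figure D2:**
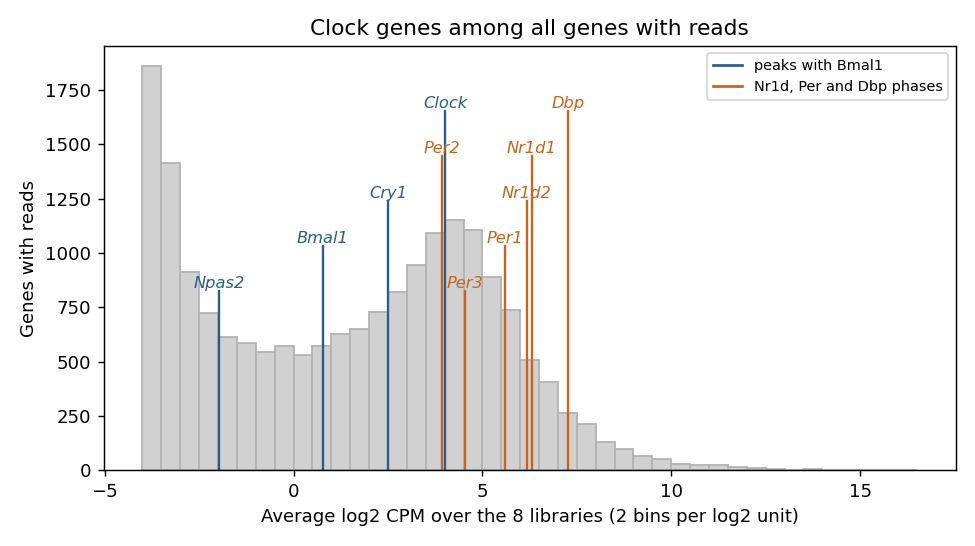
Histogram of the average log2 CPM of the 18937 genes with reads, in bins of equal width, with a vertical line at each clock gene (line heights only separate the names). Blue lines are the genes that peak with *Bmal1*, orange lines those of the *Nr1d*, *Per* and *Dbp* phases. On this scale, without division by length, *Clock* at 4.02 lies just above *Per2* at 3.94.

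Against the whole liver transcriptome the set ran from low to high abundance. The median gene with reads had 3.72 CPM, and 8 of the 10 clock genes were above it, all but *Bmal1* and *Npas2*. The upper quartile began at 21.6 CPM, and 5 of the 10 were above it, *Dbp*, *Nr1d1*, *Nr1d2*, *Per1* and *Per3*. These counts and ranks use CPM, and the median clock gene ranked above 73.0% of the genes with reads. Per kb it ranked above 60.5%, with 8 of the 10 above the median and 4 in the upper quartile, *Per3* no longer among them. In CPM, fewer members passed these marks among the 11711 genes with an average log2 CPM of at least 0. *Per2* ranked above 49.9% of those genes and *Cry1* above 26.5%, so both fell below the median. *Per3* ranked above 61.5%, short of the upper quartile.

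The separation of the groups depended on length through *Clock*. As CPM, without division by length, *Clock* (16.2) was slightly above *Per2* (15.4), and with coding length alone *Clock* (6.31 CPM per kb) was above *Per2* (4.08) but below *Per3* (6.96). With exon length over all annotated transcripts and with the longest transcript the groups did not overlap. *Bmal1*, *Npas2* and *Cry1* lay below all 6 of the other genes with each length.

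Exons of 3 members overlap those of a gene on the opposite strand, and whether the counting used strand is not given in the sources used here. *Dbp* shares 539 of its 1837 exon bases (29.3%) with *Sphk2*, and *Nr1d1* shares 263 of 2721 (9.67%) with *Thra*. *Sphk2* had 56.0 CPM and *Thra* 10.3 CPM, both below the member they overlap. *Bmal1* shares 33 bases (1.07%) with *Gm45355*. How reads in these stretches were assigned was not tested.

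The wider clock network described here held 21 further genes, all of them in the table and 20 with reads. *Rorb*, the ROR receptor of brain and retina, was at the table's lowest value, with an estimate of 0 reads. Of the 21, 16 were above the median of the genes with reads, 9 were in the upper quartile and 3 were below 1 CPM. The other PAR bZIP factors accompanied *Dbp*. *Tef* had 175 CPM and 37.2 CPM per kb, and *Hlf* had 58.0 CPM and 10.3 CPM per kb. Per kb, *Dbp* was 2.25 times *Tef* and 8.14 times *Hlf*. With coding length *Dbp* was 0.813 times *Tef*, so that their order turned, and 2.41 times *Hlf*. *Nfil3*, which competes with them at D-boxes as a repressor, was at 9.95 CPM per kb, above every *Per* gene on that scale. *Dbp* was 8.41 times higher than *Nfil3* (5.16 times with exon length over all annotated transcripts).

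*Rora*, whose receptor activates at the elements where NR1D1 and NR1D2 repress, had 0.922 CPM per kb. Among further repressors of the BMAL1 pair, *Bhlhe40* (*Dec1*) had 27.1 CPM per kb and *Ciart* (*Chrono*) 15.5, both above every *Per* gene, whereas *Bhlhe41* (*Dec2*) had 0.341. *Bmal2*, the paralog of *Bmal1*, was at 0.133 CPM per kb. The kinases and F-box proteins that set the stability of PER and CRY ranged from 0.425 CPM per kb for *Fbxl21* to 17.6 for *Csnk1d*, the casein kinase that phosphorylates PER, with a median of 3.22 over the 7 genes.

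**Figure D3:**
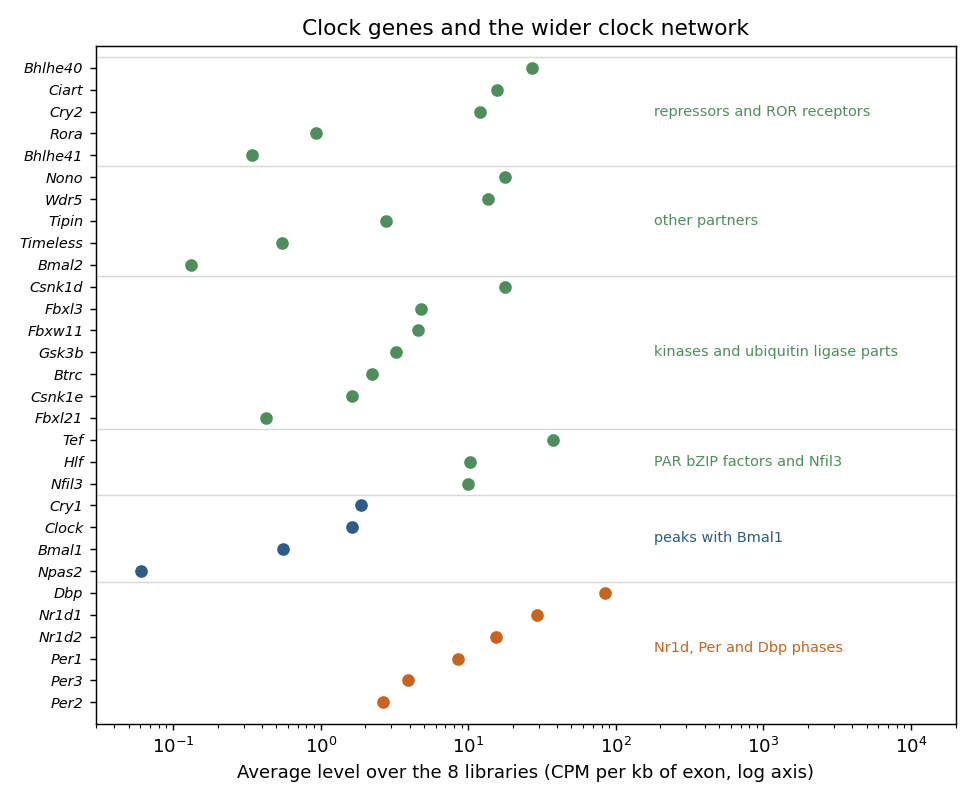
Average level over the 8 libraries, in CPM per kb of exon on a log axis, for the 10 clock genes (blue and orange) and the 20 network genes with reads (green), grouped by role. *Tef*, *Bhlhe40*, *Nono*, *Csnk1d* and *Ciart* reach or pass the level of *Nr1d2*, and *Bmal2*, *Bhlhe41* and *Fbxl21* lie below *Bmal1*. *Timeless* (0.547) is level with *Bmal1* (0.553), with overlapping counting intervals. With exon length over all annotated transcripts *Bmal1* falls to 0.227, so the order around it depends on the length used.

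The tissue label was checked against marker genes. The 5 hepatocyte markers had 4362 to 69581 CPM, with *Alb* highest. Markers of Kupffer cells (4.19 to 82.0 CPM), stellate cells (7.79 to 99.7), endothelial cells (13.2 to 44.3) and cholangiocytes (1.57 to 4.92) were present at lower levels, and clock transcripts from those cells are part of each average. Skeletal muscle markers stayed between 0.364 and 0.758 CPM. Of 4 neuronal markers, *Snap25* and *Avp* were at the table's lowest value and *Vip* had an estimated 2 reads in all, while *Syt1* had 11.0 CPM. In bulk tissue, fewer cells that express a gene and less RNA per cell cannot be told apart.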

How the data were processed

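Stranded poly-A libraries of 8 livers, 4 wild-type and 4 V227A, were sequenced as paired-end reads. Per the labels and the study's methods, the authors ran Trimmomatic for trimming, RNA STAR for alignment to GRCm38, featureCounts for counting and then edgeR. Versions, annotation and strand setting are not given in the sources used here. The values used are the authors' deposited average log2 CPM, 1 per gene over all libraries. The table's other columns hold the log2 fold change, F statistic, p-value and adjusted p-value of the authors' comparison of the genotypes, and were not used. No column of values per library was used, so the comparison of genotypes was not analysed here.

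Of 27179 genes, 8242 sit at the lowest value, -3.78, taken as no reads, which leaves 18937. With a prior count of 2, this floor gives a mean effective library size of 27473997 reads, and from it each gene's reads were estimated. Of the 2378 genes estimated at 1 to 5 reads in total, 99.9% lay within 0.1 of a whole number, against 35.3% with a prior count of 1. A simulation covered 27179 genes in 8 unequal libraries. For genes that averaged at least 100 reads per library, the median error of the estimate was 0.0088 on the log2 scale. *Bmal1* (45.0 reads per library) and *Npas2* (5.02) lie below that cut. The simulated averages were made with the same prior count of 2 that the estimate takes out. They also used assumed library sizes and the same spread between libraries for every gene. The small error therefore cannot show whether that prior count, or the reading of the floor as no reads, is right. Each library's depth is unknown. Counting intervals are exact Poisson, 95%, on estimated total reads, and do not cover the spread between mice or errors of the estimate.

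Exon length is the union of a gene's exons in the GENCODE vM21 basic annotation of GRCm38, found by Ensembl ID for 91.0% of genes with reads. Python 3.11.15, pandas 2.3.3, numpy 2.4.6, scipy 1.17.1 and matplotlib 3.10.9 were used. The genes named are the 10 members, the genes of a fixed network list (1 of which is not reported here) and fixed markers, with genes that overlap a member. The members and lists were chosen with earlier results of these data known.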

Additional observations from a re-analysis of the deposited data

How the results depend on the processing

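The members that peak with *Bmal1* had the lower median under all 8 alternatives. The only members left out were *Clock* or *Cry1*, the highest of that group per kb, so those runs could only widen the difference. Leaving out *Npas2* or a gene of the other group was not tried. The log2 difference, -3.60 as reported, was -4.37 with exon length over all annotated transcripts, -4.38 without *Clock*, -4.38 without *Cry1* and -4.43 with means in place of medians. With the other 4 it was -4.24 (no length correction), -3.69 (longest transcript), -3.77 (coding length) and -3.63 (prior count taken out). Each of these moved by less than 0.660, the full width of the widest counting interval of a member on the log2 scale. That interval is the one of *Npas2*, whose value does not set the median, so it is no measure of the median's error. Among the 11711 genes with an average log2 CPM of at least 0, the percentiles of the members fell by 2.58 to 35.4 points. With a prior count of 1 or 0.25, the estimated reads would be 2 or 8 times fewer, and with 1 the low totals would no longer be whole numbers for most genes. No paired analysis was possible because the table holds 1 average per gene over all libraries, and for the same reason leaving out single mice, a filter on counts per library and another count model were not run. The average cannot show a difference between genotypes, a rhythm or the spread between mice, and few reads limit *Npas2* and *Bmal1*.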
